A study of Rattus norvegicus with 12 samples.

Results

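Neuropeptides are short signalling molecules that neurons cut out of larger precursor proteins. The precursors are sorted into dense-core vesicles, cleaved there by convertases and released on strong activity, and the peptides act on G protein-coupled receptors. Peptidases on the cell surface end the signal. In the forebrain the precursor genes also mark types of neurons: Penk, Pdyn and Tac1 are known for striatal projection neurons, and Npy, Sst, Vip, Cck and Cort for subsets of interneurons and cortical neurons. Trh and Gal are best known from the hypothalamus and the brain stem, and Gal and Npy also from injured neurons.

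The 10 neuropeptide precursor genes described here were selected on their known function with earlier MCAO-against-Sham results of these arrays in view. Differences between the groups in these genes are therefore given as a description. Where calls of the fit over all genes are stated for them, these too are descriptive, since this contrast was known. The lists of other genes below were also chosen with earlier results of these data known. Every probe set that the array annotation assigns to exactly 1 of the 10 genes was taken. This gave 10 probe sets for 9 genes, Npy, Trh, Gal, Penk, Pdyn, Tac1, Sst, Vip and Cck, out of 12153 genes tested. The annotation assigns the 4 probe sets of Cort to 4 genes at once, so Cort was skipped. All 10 probe sets lay above the filter on low values, a log2 signal of 6.61, in all 12 arrays.

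The study compared male Sprague-Dawley rats aged 8 weeks after middle cerebral artery occlusion with reperfusion (MCAO, a surgical model of ischemic stroke, 7 rats) with rats after a sham operation (Sham, 5 rats). RNA came from the left hemisphere of the brain 24 h after reperfusion and was read on 1 array per rat. Neither the occluded side nor the length of the occlusion is stated in the sources used here. No transgene or drug is named for either group. The tissue carried neuronal and glial markers: the varying oligodendrocyte markers had a mean log2 signal of 10.29 to 10.69 in MCAO and 10.48 to 10.89 in Sham, and the varying excitatory neuron markers of 9.48 to 10.14 and 10.15 to 10.22.

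The median log2 signal of an array was 7.23 to 7.27, and the number of arrays limits the precision. Of the tested genes 6339 varied, while 5814 hardly did (near-constant: an SD under 0.01 across all 12 arrays). Counts below refer to varying genes unless stated. MCAO 4 stood apart. Its reactive astrocyte score, the mean log2 difference of varying list genes from their Sham mean, was 1.38, against 1.91 to 2.70 in the other MCAO rats. Its score over activity-regulated genes was -0.54, against 0.04 to 1.67. Many results that turn on this rat are also given without it, but not all. The search for genes of like pattern used all 12 arrays.

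The upstream sequences of the 3 genes with the largest differences upward, Trh, Gal and Npy, are shown because their signals went up and down together over the MCAO rats. Sequences are from RefSeq, build GRCr8, and cover the 250 bases before the annotated start, 5′ to 3′. Capitals mark TGACG or its reverse complement CGTCA, the core of the cyclic AMP response element (CRE), through which activity and cyclic AMP are known to induce several peptide genes.
Trh (chr4:126301763-126302012, minus strand): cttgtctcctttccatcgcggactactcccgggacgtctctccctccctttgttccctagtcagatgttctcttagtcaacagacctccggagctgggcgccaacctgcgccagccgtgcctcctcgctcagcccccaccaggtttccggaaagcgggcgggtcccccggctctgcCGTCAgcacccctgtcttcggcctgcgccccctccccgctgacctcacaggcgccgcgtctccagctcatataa
Gal (chr1:210084573-210084822, minus strand): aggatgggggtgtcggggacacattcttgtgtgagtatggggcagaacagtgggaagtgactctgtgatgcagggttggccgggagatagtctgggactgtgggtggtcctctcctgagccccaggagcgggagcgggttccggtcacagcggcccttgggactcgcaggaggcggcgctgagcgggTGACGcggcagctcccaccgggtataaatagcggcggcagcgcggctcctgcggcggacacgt
Npy (chr4:80211861-80212110, plus strand): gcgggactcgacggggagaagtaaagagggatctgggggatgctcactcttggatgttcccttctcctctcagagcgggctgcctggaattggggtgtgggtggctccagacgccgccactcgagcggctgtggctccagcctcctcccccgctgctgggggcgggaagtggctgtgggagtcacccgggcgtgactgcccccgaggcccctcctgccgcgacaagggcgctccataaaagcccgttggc

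Trh held the element 74 bases and Gal 63 bases before the start, and Npy held none in this window. Promoters of 7 of the 9 genes, all but Penk and Cck, were matched in the RefSeq table. Over the full windows of 250 bases before to 50 after the start, on both strands, TGACG was present in 5 of these 7 (Gal, Sst, Tac1, Trh and Vip) and in 22.0% of 27457 rat promoters. The whole palindrome TGACGTCA, which contains TGACG on both strands, was present in Sst alone among the 7, and in 1.91% of all promoters. The AP-1 motif TGANTCA (7.33% of all) and the STAT motif TTCNNNGAA (8.68% of all) were found in none of the 7. A match is a description of letters and no evidence of binding. Stretches of 30 bases around the element of Sst (palindrome from position 3 after the start), Vip (97 bases before it) and Tac1 (206 bases before it) are shown for comparison, since these genes carry the letters but were not higher in MCAO.
Sst (chr11:90461537-90461566, plus strand): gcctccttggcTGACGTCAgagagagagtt
Vip (chr1:44470370-44470399, plus strand): gggatcaccactgTGACGtctttcgaggag
Tac1 (chr4:36645364-36645393, plus strand): ttccctaaaattgCGTCAtttcgaacccaa

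Trh, Gal, Npy and Cck had higher signals in MCAO, Vip, Pdyn and Tac1 lower ones, Penk was lower in most MCAO rats, and Sst did not separate the groups. In tissue RNA, fewer cells of a type and less RNA per cell cannot be told apart. Trh (Entrez Gene 25569) encodes the precursor of thyrotropin-releasing hormone, a tripeptide that also acts as a neuromodulator. Its log2 signal in Sham was 6.92, 6.86, 7.05, 6.87 and 6.86, and in MCAO it ran from 7.04 through a median of 9.64 to 9.98. Of the 7 MCAO rats 6 were above every Sham rat, and MCAO 4 lay inside the Sham range. Means were 9.0 ± 1.08 (SD, n = 7) after MCAO against 6.91 ± 0.08 (SD, n = 5) after the sham operation, a log2 difference of 2.09 ± 0.48 (SE) or 4.26-fold, and a difference of 2.42 without MCAO 4. This was the largest difference among the 9 genes. All Sham values of Trh lay below the array medians of 7.23 to 7.27. Without detection calls it is not known whether they lay above background, and the fold rests on them.

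Gal (Entrez Gene 29141) encodes galanin, a peptide known to be induced in injured neurons. Its log2 signal in Sham was 7.41, 7.42, 7.41, 7.44 and 7.66, and in MCAO it ran from 8.16 through a median of 8.98 to 9.41. The groups did not overlap, and MCAO 4 had the lowest MCAO value. The log2 difference was 1.36 ± 0.21 (SE), or 2.56-fold.

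Npy (Entrez Gene 24604) encodes neuropeptide Y, an abundant inhibitory peptide of cortical interneurons. Its log2 signal in Sham was 9.95, 9.87, 9.94, 9.97 and 9.88, a spread of 0.04 (SD, n = 5). In MCAO it ran from 9.93 through a median of 11.16 to 11.28, with an SD of 0.52 (n = 7) that was 12.1 times the Sham SD. Again 6 of 7 MCAO rats were above all Sham rats and MCAO 4 lay among them. The log2 difference was 0.93 ± 0.23 (SE), or 1.9-fold, and 1.08 without MCAO 4.

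Cck (Entrez Gene 25298) encodes cholecystokinin, a peptide of many cortical neurons and of a class of basket cells. Its log2 signal in Sham was 11.55, 11.48, 11.60, 11.59 and 11.55, and in MCAO it ran from 11.36 through a median of 12.06 to 12.23. The values of 6 MCAO rats were above all Sham values, and MCAO 4 was below all of them. The log2 difference was 0.43 ± 0.13 (SE), or 1.34-fold, and 0.53 without MCAO 4.

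**Figure D1:**
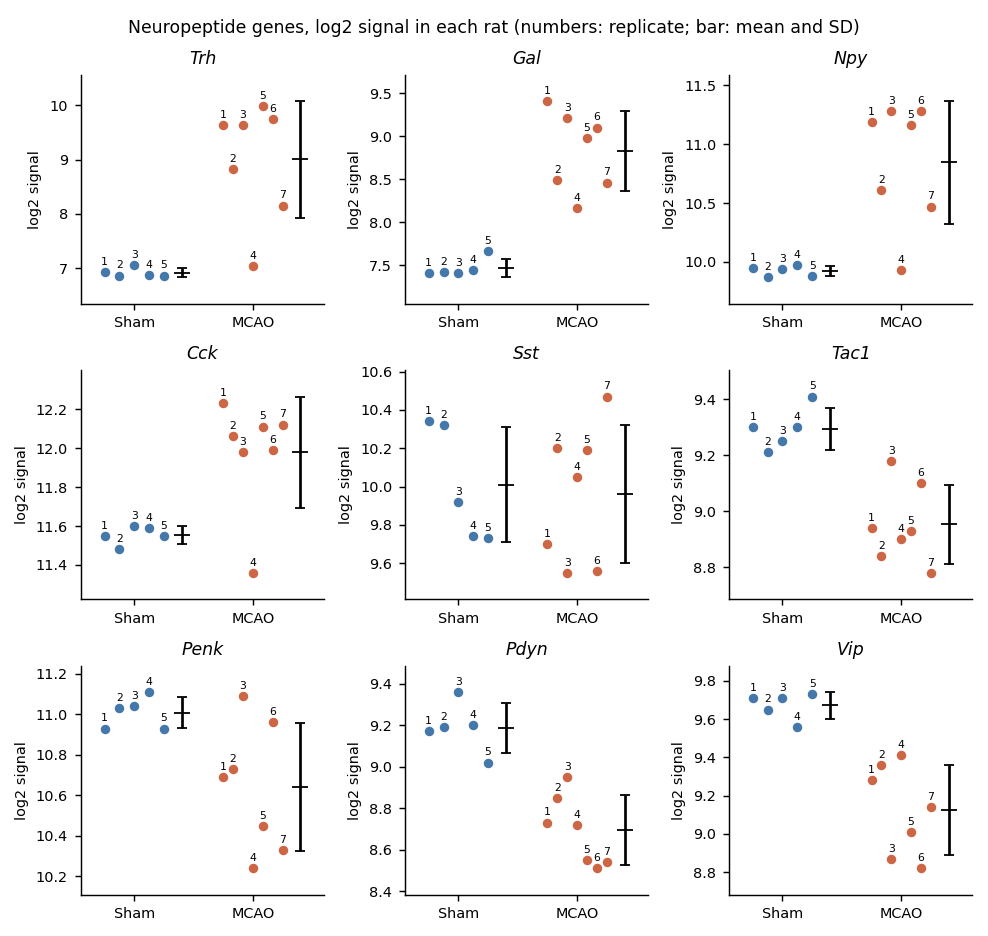
Log2 signal (y axes) of 9 neuropeptide genes in 5 Sham rats (blue) and 7 MCAO rats (orange), each point 1 rat with its replicate number, and bars the mean and SD; y axes differ between panels and do not start at 0. Trh, Gal, Npy and Cck are higher in 6 or 7 MCAO rats, with MCAO 4 lowest in each, while Vip, Pdyn and Tac1 lie below all Sham rats.

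Among the genes with lower signals, Vip (Entrez Gene 117064) encodes vasoactive intestinal peptide, made by interneurons that inhibit other interneurons. Its log2 signal in Sham was 9.71, 9.65, 9.71, 9.56 and 9.73, and in MCAO it ran from 8.82 through a median of 9.14 to 9.41. All MCAO rats were below all Sham rats, with a log2 difference of -0.54 ± 0.11 (SE). Here MCAO 4 had the value nearest to Sham.

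The 3 precursors of striatal projection neurons are known to split between the output pathways, with Penk (enkephalins) in the indirect and Pdyn (dynorphins) and Tac1 (substance P) in the direct pathway. Pdyn (Entrez Gene 29190) had Sham signals of 9.17, 9.19, 9.36, 9.2 and 9.02 and ran in MCAO from 8.51 through a median of 8.72 to 8.95, a log2 difference of -0.49 ± 0.09 (SE) with no overlap. Its other probe set, with the lower signal, ran from 6.88 to 7.19 in MCAO and from 7.15 to 7.31 in Sham. There the difference was -0.21, and 6 of 7 MCAO rats were below all Sham rats. Tac1 (Entrez Gene 24806) had Sham signals of 9.30, 9.21, 9.25, 9.30 and 9.41 and ran in MCAO from 8.78 through a median of 8.93 to 9.18, a log2 difference of -0.34 ± 0.07 (SE), also with no overlap.

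Penk (Entrez Gene 29237) was less uniform. Its Sham signals were 10.93, 11.03, 11.04, 11.11 and 10.93, and in MCAO it ran from 10.24 through a median of 10.69 to 11.09. The values of 5 MCAO rats were below all Sham values, and those of MCAO 3 (11.09) and MCAO 6 (10.96) lay within the Sham range. The log2 difference was -0.37 ± 0.15 (SE).

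Sst (Entrez Gene 24797), the precursor of somatostatin, an inhibitory peptide of dendrite-targeting interneurons, varied as much in Sham as in MCAO. Its Sham signals were 10.34, 10.32, 9.92, 9.74 and 9.73 (SD 0.30, n = 5), and in MCAO it ran from 9.55 through a median of 10.05 to 10.47 (SD 0.36, n = 7). The log2 difference was -0.05 ± 0.19 (SE), and its sign turned when Sham 1 (0.03), Sham 2 (0.03), MCAO 3 (0.02) or MCAO 6 (0.02) was left out. The other 8 genes had Sham SDs of 0.04 to 0.12.

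In the fit over all genes (limma, Benjamini-Hochberg), 4 of the 9 genes passed upward (Trh, Gal, Npy, Cck) and 3 downward (Pdyn, Tac1, Vip), and Penk and Sst did not pass. Of all 6339 varying genes, 35.2% passed upward and 34.2% downward. The groups were fully separated, with MCAO above Sham, for 1 of the 9 genes (17.9% of all varying genes) and with MCAO below Sham for 3 (16.2%). Nothing is read from these counts, since the genes were chosen with this contrast known. The median log2 difference of the 9 genes was -0.05, beside 0.03 for all varying genes. Without Sham 2, Cck did not pass. Penk passed downward without MCAO 3 or without MCAO 6.

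**Figure D2:**
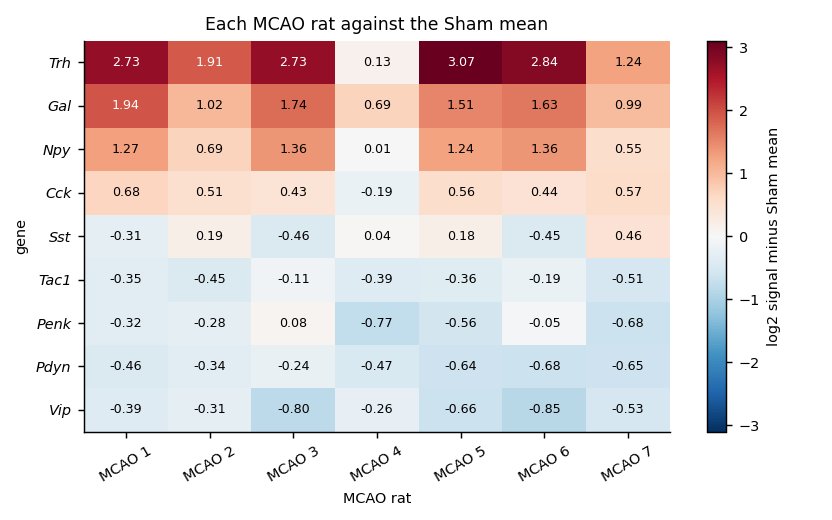
Log2 signal of each gene (rows) in each of the 7 MCAO rats (columns) minus the mean of the 5 Sham rats; red is above and blue below the Sham mean, and the number in each cell is the difference. Trh, Gal and Npy are nearest to Sham in MCAO 4 and next in MCAO 7 and MCAO 2, and Vip is lowest in MCAO 6 and MCAO 3.

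The low end of the order of MCAO rats was shared by Trh, Gal and Npy. MCAO 4, MCAO 7 and MCAO 2 held the 3 lowest values of all 3 genes, in that order from the lowest. The order of the other rats differed, with MCAO 5 highest for Trh, MCAO 1 for Gal and MCAO 3 for Npy. Over the 7 MCAO rats, Npy and Trh had a Pearson r of 0.98 (exact permutation p = 0.00437, adjusted p = 0.0524 over 36 pairs of genes) and a Spearman rho of 0.68 (exact permutation p = 0.11, adjusted p = 0.303). Leaving out the 2 rats farthest from the Npy median gave an r of 0.89, and leaving out MCAO 4 gave 0.94. Npy and Gal had an r of 0.95 (exact permutation p = 0.00377, adjusted p = 0.0524) and a rho of 0.89 (exact permutation p = 0.0123, adjusted p = 0.111), with 0.88 and 0.93 after the same omissions. Trh and Gal had an r of 0.89 (exact permutation p = 0.00853, adjusted p = 0.0768) and a rho of 0.68 (exact permutation p = 0.11, adjusted p = 0.303). Their r was 0.72 without the 2 rats farthest from the Trh median and 0.83 without MCAO 4. Tac1 and Sst ran opposite, with an r of -0.90 (exact permutation p = 0.00198, adjusted p = 0.0524) and a rho of -0.96 (exact permutation p = 0.00278, adjusted p = 0.1), with -0.82 without the 2 rats farthest from the Tac1 median and -0.90 without MCAO 4. The r of Cck turned on MCAO 4: without that rat it went from 0.75 to -0.12 with Trh and from 0.71 to -0.19 with Npy. With Gal it went from 0.64 to 0.12. No pair passed after adjustment. The genes of a pair share the arrays, and these relations were examined after the values were seen.

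The next question was whether these genes followed astrocyte, striatal or activity-regulated genes from rat to rat. Within the 7 MCAO rats the 9 genes were set against 3 scores, 27 relations in all. Npy had an r of 0.97 with the reactive astrocyte score (exact two-sided permutation p = 0.00258, adjusted p = 0.0375) and a rho of 0.82 (exact permutation p = 0.0341, adjusted p = 0.23). Trh had an r of 0.95 (exact permutation p = 0.00278, adjusted p = 0.0375) and a rho of 0.93 (exact permutation p = 0.00675, adjusted p = 0.182). Without the 2 rats farthest from the median score, r was 0.90 for Npy and 0.84 for Trh. Over all varying genes, 0.536% had an r with this score at least as high as that of Npy and 1.96% at least as high as that of Trh.

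Both relations passed with Pearson's r only. With 1 rat left out, r stayed between 0.93 and 0.99 for Npy and between 0.87 and 0.98 for Trh, but both passed after adjustment only when the rat left out was MCAO 5. Without any one of MCAO 1, MCAO 2, MCAO 3, MCAO 4, MCAO 6 and MCAO 7 neither passed, with adjusted p = 0.0625 to 0.175 (exact permutation test). With 6 arrays there are fewer pairings, so the p of this test comes in coarser steps. Npy, Trh and the score were read on the same arrays, and what moved them together was not tested.

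Gal (r = 0.87, exact permutation p = 0.0101, adjusted p = 0.0911; rho = 0.68, exact permutation p = 0.11, adjusted p = 0.296) and Vip (r = -0.82, exact permutation p = 0.0248, adjusted p = 0.167; rho = -0.86, exact permutation p = 0.0238, adjusted p = 0.214) did not pass with the astrocyte score. Without the 2 farthest rats r was 0.65 for Gal and -0.86 for Vip. Cck did not pass with this score either, and its r turned from 0.67 over all 7 rats to -0.34 without MCAO 4. Against the striatal projection neuron score no relation passed, and over all 7 rats Vip had the largest r in absolute size (0.79, exact permutation p = 0.0387, adjusted p = 0.209; rho = 0.79, exact permutation p = 0.048, adjusted p = 0.259; r = 0.59 without the 2 farthest). Penk, Pdyn and Tac1 had an r of -0.31, 0.60 and -0.51 with it, and Penk of -0.10 without MCAO 4. Leaving out the 2 farthest rats put Trh (-0.92), Npy (-0.85), Cck (-0.82) and Gal (-0.73) ahead of Vip in absolute size. The order of the genes against this score thus rests on those rats.

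Against the score of activity-regulated genes no relation passed either, with all 7 rats or without MCAO 4, and the values turned on that rat. Npy, Trh and Gal had an r of 0.11, 0.22 and 0.03 over all 7 rats, of -0.77, -0.62 and -0.62 without MCAO 4, and of -0.68, -0.59 and -0.34 without the 2 rats farthest from the median score. Cck had an r of 0.71 (exact permutation p = 0.0875, adjusted p = 0.253; rho = 0.75, exact permutation p = 0.0663, adjusted p = 0.296), of 0.45 without MCAO 4 and of 0.89 without the 2 farthest. Vip had an r of 0.28 (exact permutation p = 0.543, adjusted p = 0.698; rho = 0.18, exact permutation p = 0.713, adjusted p = 0.875). Without MCAO 4 its r was 0.94 (exact permutation p = 0.00556, adjusted p = 0.15), and it was 0.94 without the 2 farthest. Tac1 had an r of -0.52 over all 7 rats and of -0.81 without MCAO 4.

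**Figure D3:**
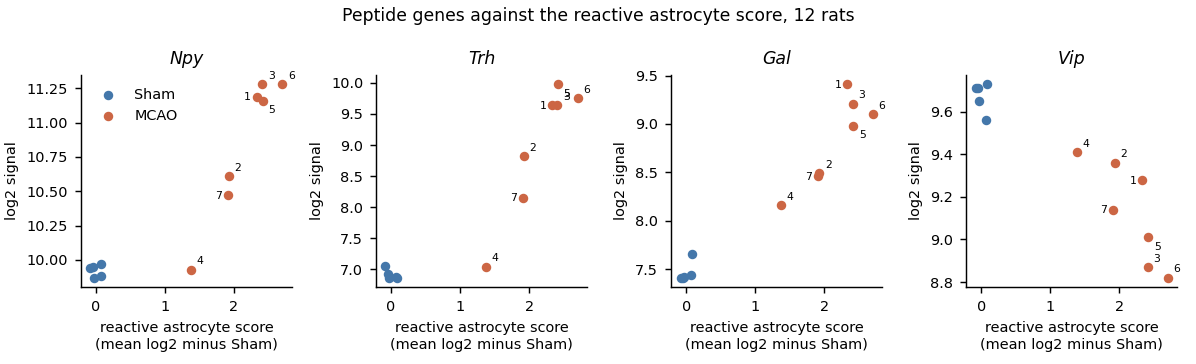
Log2 signal of Npy, Trh, Gal and Vip (y axes) against the reactive astrocyte score (x axis, mean log2 difference of the list's varying genes from their Sham mean) in 5 Sham (blue) and 7 MCAO rats (orange, with replicate numbers). Among MCAO rats Npy and Trh go up with the score (r = 0.97 and 0.95), MCAO 4 having the lowest score, and Vip goes down (r = -0.82, not passing after adjustment).

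The genes whose pattern was most like that of each member were sought over the 12 arrays after each group's mean was subtracted, among 6293 varying genes. For Npy they were Hmox1, the heme oxygenase gene (r = 0.99), Cyp1b1, a cytochrome P450 gene, and Flnc, a filamin gene (both 0.98). For Trh they were the cytokine gene Il11 and the chemokine gene Ccl2 (both 0.99) and again Cyp1b1 (0.98). For Gal they were Agpat2 (0.98), Med21 and H19 (both 0.97). For Cck they were Efhd2 (0.98), Fam43b and Gem (both 0.96).

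For the genes with lower signals the likeness was weaker. Pdyn was most like Nxpe3 (r = 0.93), Mpp7 (0.86) and Dcun1d2 (0.80), Tac1 most like Cdh1 (0.94), Cd68 (0.92) and Unc119b (0.91), and Vip most like Ak4, Wdr13 (both 0.92) and Id2 (0.90). Penk was most like Il1b, Cavin3 (both 0.93) and Sele (0.92), and Sst most like Dnajc6 (0.89), Gabbr2 (0.81) and Kcnip3 (0.80). The 3 genes most like Penk and the 3 most like Tac1 all had higher means in MCAO, opposite to Penk and Tac1. These are the highest of many values over 12 arrays and serve as a description. The search was not repeated without MCAO 4, the lowest MCAO rat for Npy, Trh, Gal, Penk and Cck, and these r may lean on it.

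Of 40 further peptide precursors listed, 23 were tested and 15 varied, and 4 of these were called higher and none lower (limma, Benjamini-Hochberg; 5 higher and 4 lower at an unadjusted p under the threshold, near-constant genes included), with a median log2 difference of 0.30. Over all varying genes 35.2% were called higher and 34.2% lower, and nothing particular to this list is read from its counts. Adm, the precursor of the vasodilator adrenomedullin, rose by 1.07 ± 0.17 (SE; limma adjusted p = 0.0016), with all MCAO rats above all Sham rats. The calcitonin gene-related peptide gene Calca (0.87 ± 0.23; limma adjusted p = 0.0118) and the natriuretic peptide gene Nppa (0.44 ± 0.12; limma adjusted p = 0.0159) rose too. Adm was below the filter value in 1 Sham array. The 4th call was Calcb, a related peptide gene, which lay below the filter value in all 5 Sham arrays. It entered the fit only through the MCAO arrays, so its difference of 0.61 ± 0.18 (SE) is given as a description. Without MCAO 4 the list had 7 calls upward and 4 downward, against 4 and 1 (a near-constant gene) with it, and without MCAO 7 it had 2 downward.

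Several precursors scattered widely among MCAO rats without passing. Crh, the corticotropin-releasing hormone gene, ran from 6.78 to 8.22 in MCAO and from 7.21 to 7.41 in Sham (log2 difference 0.34 ± 0.23), and Adcyap1, the PACAP gene, from 8.26 to 9.71 and from 8.50 to 8.69 (0.28 ± 0.22). These 2 were picked after their values were seen. Among precursors of hypothalamic peptides, Pmch had a difference of 0.09 ± 0.26 and Oxt of -0.64 ± 0.28 (limma adjusted p = 0.0911). Of 3 varying hypothalamic markers 0 passed (limma; 0 higher and 1 lower at an unadjusted p under the threshold, among 5 tested), and their mean log2 signal was 8.22 to 9.37 in MCAO and 8.84 to 9.35 in Sham. The median log2 difference of these 3 markers was 0.01. The part of hypothalamic tissue in the higher Trh and Gal signals was not tested.

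Of 21 varying genes of the machinery that makes and stores peptides, 9 fell and 2 rose, with a median log2 difference of -0.10. Beside them stand the 34.2% of all varying genes called lower and the 35.2% called higher, and nothing particular to this list is read from its count of lower genes. Those with the smallest adjusted p downward were Sez6l2 (-0.47 ± 0.09; limma adjusted p = 0.00271), Cadps, a priming factor of vesicle release (-0.38 ± 0.07; limma adjusted p = 0.00298), Ptprn2, a vesicle membrane protein (-0.28 ± 0.06; limma adjusted p = 0.00363), and Pcsk2, the convertase that cuts many of these precursors (-0.45 ± 0.09; limma adjusted p = 0.00397). Furin, the convertase of the constitutive pathway (0.22 ± 0.05; limma adjusted p = 0.00506), and the carboxypeptidase gene Cpd (0.28 ± 0.10; limma adjusted p = 0.0438) rose. The largest difference downward was that of Cadps2, a relative of Cadps picked after its value was seen (-0.87 ± 0.18; limma adjusted p = 0.00426). The granin gene Vgf, also picked after its values were seen, ran from 8.98 to 10.97 in MCAO and from 9.45 to 9.73 in Sham and did not pass (0.62 ± 0.31; limma adjusted p = 0.127). A single call upward was left with equal array medians and without any one of MCAO 3, MCAO 5, MCAO 6, MCAO 7, Sham 1, Sham 2, Sham 3 and Sham 5.

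Of 12 varying receptor genes 8 fell and none rose (limma; among all 27 tested, 2 higher and 12 lower at an unadjusted p under the threshold), with a median log2 difference of -0.34, beside 34.2% of all varying genes called lower. Another 15 were near-constant, with a largest absolute log2 difference of 0.00041, and 3 of them passed as lower with sizes that are not interpreted. Upward calls numbered 2 without MCAO 4 and 2 without a filter, and 1 without any one of MCAO 2, MCAO 7 and Sham 1. Npy5r, a receptor for neuropeptide Y, fell by 0.57 (SE 0.10; limma adjusted p = 0.00202) from 7.53 to 7.73 in Sham to 6.91 to 7.46 in MCAO. Trhr, the receptor of thyrotropin-releasing hormone, fell by 0.33 (SE 0.06; limma adjusted p = 0.00244), and all MCAO rats lay below all Sham rats for both genes. Hcrtr2, an orexin receptor (-0.35 ± 0.07; limma adjusted p = 0.00282), and Adcyap1r1, the PACAP receptor (-0.50 ± 0.10; limma adjusted p = 0.00403), came next. Hcrtr2 was above the filter value in 10 of the 12 arrays, with a lowest MCAO value of 6.49.

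Set beside their ligands, and picked for that, Npy1r had a difference of -0.49 ± 0.16 (limma adjusted p = 0.0342) and the cholecystokinin receptor gene Cckbr of -0.71 ± 0.15 (limma adjusted p = 0.00436). Thus the tested varying receptors of Npy, Trh and Cck were lower while the ligand's signal was higher. Among all varying receptors, however, 8 were called lower and 0 higher. Nothing particular to ligands with higher signals is therefore read from these receptors. The somatostatin receptor gene Sstr2 also fell, by 0.31 (SE 0.10; limma adjusted p = 0.0267), although Sst did not separate the groups. Vipr1, a receptor of vasoactive intestinal peptide, ran from 7.44 to 8.74 in MCAO and from 7.58 to 7.79 in Sham. It did not pass (0.26 ± 0.20; limma adjusted p = 0.332). The opioid receptor genes Oprm1, Oprd1 and Oprk1, which bind the products of Penk and Pdyn, and the substance P receptor gene Tacr1 were near-constant and give no difference to read.

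Of 10 varying genes of peptide-degrading enzymes, 6 were called higher and 4 lower, with a median log2 difference of 0.32. Of all varying genes 35.2% were called higher and 34.2% lower, and nothing particular to the list is read from these counts. Trhde, the ectoenzyme that inactivates thyrotropin-releasing hormone, fell by 0.36 (SE 0.06; limma adjusted p = 0.00184), from 7.44 to 7.55 in Sham to 6.98 to 7.38 in MCAO. Mme, neprilysin, which cleaves enkephalins and substance P, is 1 of the 4 lower calls but lay below the filter value in all 7 MCAO arrays. It entered the fit only through the Sham arrays, so its difference of -0.30 ± 0.04 (SE) is given as a description. Npepps (-0.30 ± 0.07; limma adjusted p = 0.00537) and Ece2 (-0.25 ± 0.05; limma adjusted p = 0.00438) fell too. The endothelin-converting enzyme gene Ece1 (0.70 ± 0.13; limma adjusted p = 0.00287) and the aminopeptidase genes Enpep (0.64 ± 0.15; limma adjusted p = 0.00635) and Anpep (0.35 ± 0.09; limma adjusted p = 0.00962), known from vessels among other cells, rose, as did Prep (0.35 ± 0.09; limma adjusted p = 0.00966).

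**Figure D4:**
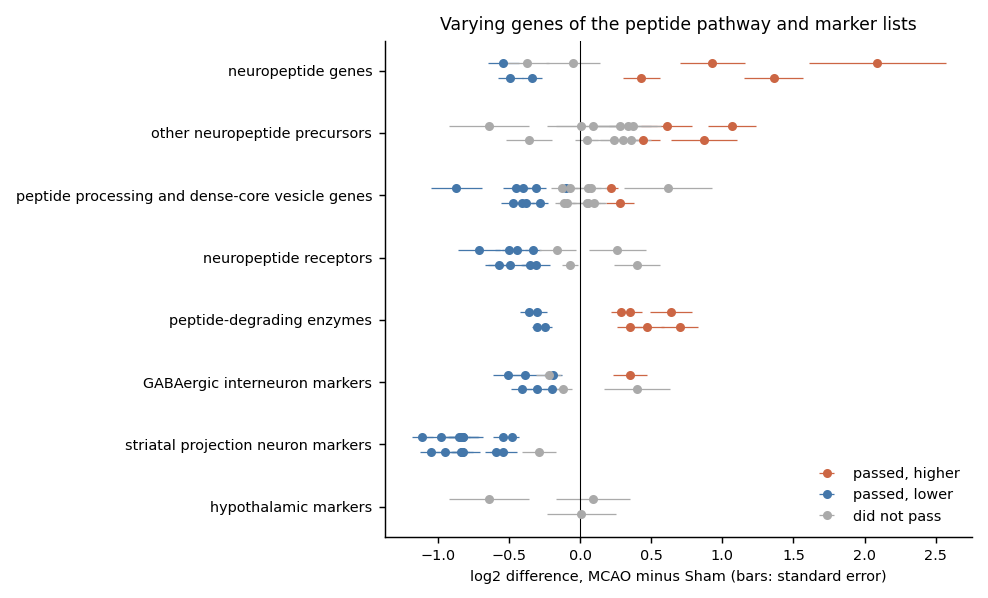
Log2 difference, MCAO minus Sham (x axis), of varying genes in the peptide pathway and in 3 marker lists (rows); each point is 1 gene, bars are standard errors, and colour shows whether it passed in the fit over all genes. Receptors (8 lower, 0 higher) lie mostly and striatal markers (15 lower, 0 higher) all to the left. Degrading enzymes lie on both sides (6 higher, 4 lower). The top row was chosen with this contrast known, and the other lists also with earlier results of these data known.

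Markers of the cells that carry these peptides moved as well. Beside the counts of all marker lists below stand 35.2% of all varying genes called higher and 34.2% called lower. Of 16 varying striatal projection neuron markers 15 fell, with a median log2 difference of -0.82, led by Syndig1l (-1.11 ± 0.07; limma adjusted p = 7.8e-05) and the dopamine receptor gene Drd2 (-0.84 ± 0.06; limma adjusted p = 8.3e-05). Their mean log2 signal was 8.19 to 8.67 in MCAO and 9.14 to 9.24 in Sham. The differences of Pdyn, Tac1 and Penk, -0.49, -0.34 and -0.37, were smaller than this median. The part of striatal cell loss in the lower Pdyn, Tac1 and Penk was not tested.

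Of 10 varying GABAergic interneuron markers 6 fell and 1 rose, with a median of -0.21 and a mean log2 signal of 9.08 to 9.29 in MCAO and 9.28 to 9.34 in Sham. Nxph1 (-0.41 ± 0.07; limma adjusted p = 0.00244) and the potassium channel gene Kcnc2 (-0.51 ± 0.10; limma adjusted p = 0.00335) had the strongest statistics. The GABA-synthesis gene Gad2, picked after its value was seen, was the 1 that rose (0.35 ± 0.12; limma adjusted p = 0.0392). Of 9 varying excitatory neuron markers 7 fell and none rose (limma; 0 higher and 10 lower at an unadjusted p under the threshold among 14 tested), with a median of -0.44, such as Neurod6 (-0.69 ± 0.13; limma adjusted p = 0.00342) and Lmo4 (-0.15 ± 0.03; limma adjusted p = 0.0024). Npy and Cck, interneuron and cortical peptides, were higher while these marker lists had lower medians, and the cause was not tested.

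All 13 varying reactive astrocyte genes were called higher (median 1.91; mean log2 signal 9.06 to 10.38 in MCAO and 7.61 to 7.77 in Sham), among them Hspb1 (4.54 ± 0.28) and Gfap (1.91 ± 0.12; both limma adjusted p = 5.2e-05). Lcn2 and Serpina3n are among the 13 but lay above the filter value in the 7 MCAO arrays alone and entered the fit only through them. Of 12 varying microglia and phagocyte genes 10 rose and 2 fell (median 0.90; 8.20 to 8.79 against 7.82 to 8.07), with C1qb (1.10 ± 0.09) and C1qc (1.35 ± 0.13) leading. Of 17 activity-regulated genes 6 rose, near the 35.2% of all varying genes called higher, and 1 fell. Their median was 0.20 (7.93 to 10.14 against 8.43 to 8.57). The smallest adjusted p were those of Ier2 (0.93 ± 0.16; limma adjusted p = 0.00222) and Ptgs2 (1.91 ± 0.47; limma adjusted p = 0.00865), while Inhba, picked after its value was seen, had the larger difference of 2.51 ± 0.65 (limma adjusted p = 0.0108). The part of these cell types and programmes in the Trh, Gal and Npy signals was not tested.

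The remaining lists were markers of other regions and of oligodendrocytes. Of 6 varying thalamic markers 2 rose and 2 fell (median -0.07; 8.80 to 9.04 against 8.87 to 9.03), with Rora at 0.37 ± 0.08 (limma adjusted p = 0.00594) and Slc17a6 at -0.30 ± 0.07 (limma adjusted p = 0.00696). Of 6 varying choroid plexus markers 1 rose, Aqp1 (0.46 ± 0.12; limma adjusted p = 0.0112), and Sostdc1 had a difference of -0.38 ± 0.25 (median of the list -0.05; 7.82 to 8.59 against 8.11 to 8.67). Of 9 varying oligodendrocyte markers 3 fell (median -0.22), led by Ermn (-0.43 ± 0.06; limma adjusted p = 0.000989) and Opalin (-0.53 ± 0.16; limma adjusted p = 0.0195).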

How the data were processed

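The authors' deposited values, 31099 probe sets on 12 arrays, were taken as log2 signals, as judged from their range. What log base, software and normalization the authors used was not given in the sources used here. No further scaling was applied. Per the labels' protocols, total RNA was extracted with TRIzol reagent, cleaned on an RNeasy column, and 100 ng was labelled with biotin as cRNA. Probe sets were named through the array annotation (20826 with 1 gene; 436 with several, left out; 57 array controls left out; 9780 others unnamed). Probe sets had to exceed 6.61, the 25th percentile, on 5 or more arrays, the one with the highest mean represented its gene, and 12153 genes were fitted with limma 3.58.1 in R 4.3.3 (lmFit, eBayes with trend, two-sided, Benjamini-Hochberg, threshold 0.05). Standard errors are from this fit. The fit was tested on simulated data. Relations over MCAO rats used exact permutation of all 5040 pairings (smallest p 0.000397 for Spearman's rho without ties), in Python 3.11.15.

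The members and lists were chosen with earlier results of these data known. Of 4 pathway and 10 marker lists (277 entries), the up to 4 strongest calls in each direction, or the 2 strongest genes, were named; from marker lists the 2 strongest; for likeness the 3 highest r. Genes named outside this rule are marked. No detection calls or depth apply to these values. Alternatives were other scalings, filters, probe set rules, array weights, eBayes without trend, leaving out near-constant probe sets, the replicate number as a block and leaving out each array; the pairs of members, and leaving out single arrays in the score relations, were added after the data were seen.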

Additional observations from a re-analysis of the deposited data

Results flagged for a closer look

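Single rats lay far from the rest of their group for 14 of 110 groups of values tested, by a gap criterion that chance meets in about 1 of 20. MCAO 4 was the lowest of 7 for Cck (11.36), Furin (7.65), Enpep (7.17), Ier2 (7.62) and Ptgs2 (8.42). MCAO 2 was the lowest for C1qb (9.18) and C1qc (8.41). Sham 5 was the highest of 5 for Gal (7.66) and Aqp1 (7.68) and the lowest for Calcb (6.4) and Pmch (9.29). Sham 2 was the lowest for Adm (6.43), Sham 1 the highest for Mme (6.76), and Sham 4 the highest for the score of activity-regulated genes (0.11).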

How the results depend on the processing

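Under the scalings, filters and omissions named in the methods, 375 values kept their direction and stayed within a tolerance (1.5 times for a count, 1 SD between replicates for a difference) and 32 moved beyond it. Of the values added after the data were seen, 15 stayed within it and 6 did not. In the first set the sign of the small Sst difference turned in 4 (without Sham 1, Sham 2, MCAO 3 or MCAO 6), its range without single arrays being -0.134 to 0.0335. Counts here include near-constant genes. With equal array medians the other precursors had 0 calls downward and the processing genes 1 upward. With no filter 2 receptors were called upward, and with the filter at the 50th percentile 0 precursors downward. Penk was called lower with array weights and with near-constant probe sets left out. With array weights 10 precursors were called upward, 4 downward, and 3 receptors upward. With near-constant probe sets left out, 2 precursors were called downward and 1 receptor upward. Leaving out single arrays gave 4 to 7 precursors upward and 1 to 4 downward, 1 to 2 processing genes upward and 0 to 2 receptors upward. Of the relations with the reactive astrocyte score, 2 passed as reported, 0 with Spearman's rho and 0 to 2 without single arrays. The cause was not tested, beyond the fewer arrays. Without the 2 farthest arrays 0 passed. So few pairings were then left that a pass after adjustment over 27 relations was hardly possible, and nothing is read from this 0. Same-numbered arrays of the 2 groups had correlations of deviations of 0.32, 0.54, -0.34, -0.05 and 0.16, so the numbers were not taken as pairs, and not every array matched its own number best. With the replicate number as a block (5 arrays a group), 2 peptide genes were called upward (Trh and Gal; Npy and Cck not) and 2 downward (Pdyn and Tac1; Vip not), 1 other precursor upward and 0 downward, 0 processing genes upward, 6 receptors downward and 3 degrading enzymes upward.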

Other observations

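The 4 probe sets assigned jointly to Cenps, Pgd, Kif1b and Cort entered no comparison. The target transcript of 1 of them is listed by RefSeq under Cort, the cortistatin gene. Its log2 signal was 7.89 ± 0.09 (SD, n = 7) in MCAO, between 7.74 and 7.97, and 8.07 ± 0.05 (SD, n = 5) in Sham, between 7.99 and 8.12. A further probe set was at 8.01 in every array, and the remaining ones had differences of -0.18 and -0.26.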
